A study of Homo sapiens with 60 samples.

Results

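OL9-119 added to topotecan was described in 8 libraries of clone C6, a HEK293A line whose TDP1 gene was targeted with CRISPR/Cas9. HEK293A is a human embryonic kidney cell line. The members were chosen by their sample titles alone: 4 libraries of C6 cells given topotecan at 100 nM together with OL9-119 at 5 µM (the combination) and 4 of C6 cells given topotecan at 100 nM in 0.1% DMSO, out of 60 libraries in the series. All 8 carry the TDP1 edit, both groups carry topotecan, and both were treated for 5 to 5.5 hours, so their difference is what OL9-119 adds to topotecan. The labels give DMSO for topotecan alone and state none for the combination, so a difference in DMSO cannot be told apart from OL9-119. The other C6 groups, used for the spread and for the background, were untreated cells, 0.1% DMSO, and OL9-119 at 5 µM in 0.1% DMSO, with 4 libraries each. C6 is 1 clone, and no unedited parental cells were used here. Libraries were made from poly(A)-selected RNA with a directional kit. Replicates are labelled as biological, and the labels do not say whether they were separate cultures, so p-values measure the spread between these samples.

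Topotecan traps topoisomerase 1 on DNA, and TDP1 is the enzyme that frees DNA ends from the trapped protein. OL9-119 is one of the compounds developed as inhibitors of TDP1. Much of what is described below concerns the integrated stress response. In that response, kinases that sense unfolded protein, lack of amino acids, lack of haem or mitochondrial trouble phosphorylate the translation factor eIF2, which slows protein synthesis while the transcription factor ATF4 is translated more. ATF4 then switches on genes for amino acid uptake, amino acid synthesis and tRNA charging, along with stress regulators such as DDIT3 (CHOP) and TRIB3.

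In C6 the topotecan libraries held 5315402, 13617238, 16236291 and 13498333 counts and the combination libraries 6490421, 4623685, 11339246 and 9931495. Reduced to a common 4500000 counts, the topotecan libraries showed 18489 to 21563 genes with at least 1 count and the combination libraries 17453 to 21321. These ranges overlapped (exact permutation test over 4 against 4 libraries, two-sided, p = 0.6, adjusted p = 0.686 over 2 values; the smallest p this design allows is 0.0286). In 10 of the 20 C6 libraries, 2 of topotecan and 3 of the combination among them, fewer than 20000 genes were detected at that depth. Of 16 genes known in HEK293 cells 14 could be tested, KRT8, KRT18, VIM, NEFL and LHX1 among them. PAX8 was tested but low, with 174 counts over the 20 libraries. INA and STMN2 could not be tested, with 62 counts and 1 count. Of 12 blood markers 2 could be tested, with a summed level of 2.80 to 5.69 CPM (counts-per-million) in the topotecan libraries and 1.08 to 3.01 CPM in the combination libraries. HBB, ALAS2 and S100A8 were at 0. The summed fibroblast markers lay at 44.3 to 60.4 and 38.7 to 53.7 CPM, the summed endothelial markers at 3.84 to 8.51 and 4.37 to 9.24 CPM. None of 8 hepatocyte markers had enough counts to test, with 0 to 8 counts per library of the topotecan and combination groups. In bulk RNA, fewer cells with a transcript and less of it per cell cannot be told apart.

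TDP1 (ENSG00000042088, chromosome 14, 89954939 to 90044768, hg38) stood at 40.2, 28.9, 24.8 and 26.4 CPM in the topotecan libraries and at 25.9, 29.5, 30.2 and 25.2 CPM in the combination libraries. The groups overlapped, with a log2 change of -0.11 ± 0.15 (SE; adjusted p = 0.85, edgeR quasi-likelihood test). Counts over the whole gene do not check a CRISPR edit, since an edited transcript is still counted. TOP1, the target of topotecan, lay at 239 ± 40.7 CPM with topotecan and 229.6 ± 28.1 CPM with the combination (SD, n = 4), a log2 change of -0.06 ± 0.14 (adjusted p = 0.918, edgeR). Neither gene changed beyond the spread, and both changes took the other sign when single libraries were left out.

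Adding OL9-119 to topotecan changed 53 of 16657 genes (0.318%) at an adjusted p under 0.05 (edgeR quasi-likelihood, Benjamini-Hochberg over all genes), and such genes are said to be called. Of these, 32 rose (0.192%) and 21 fell (0.126%). The rises were led by ATF4 targets, amino acid transporters and the transferrin receptor, and the falls by mitochondrially encoded RNAs and heat shock proteins of the HSP70 family. Most changes were small: 15 of the 53 reached 2-fold, and the median log2 change of all genes was -0.02. DMSO against no treatment, the background in the same clone, gave 0 called genes (edgeR), with 548 at an unadjusted p under 0.05 against 1470 for the combination minus topotecan. In all 53 genes the 4 combination libraries lay on one side of the 4 topotecan libraries, as they did for 407 genes of all tested in the higher (2.44%) and 453 in the lower direction (2.72%). The count moved with single libraries: it was 32, 35 and 35 without topotecan replicate 2, topotecan replicate 3 or combination replicate 4, and 16 without replicate 1 of every group. It was 25 without the 10 libraries of low detection, which left 1 combination library, and there 20 of the 53 were still called and all 53 kept their sign. In the 8 fits that left out 1 topotecan or combination library in turn, 30 of the 53 were called each time. Of the others, DDIT4 and PRDX1 were called in none, MT-TA in none of those that tested it, GARS1 and NEAT1 in 1, and TUBE1, SLC38A2, ULBP1, SIAH1, HES1, CCDC71L, OAZ2 and RHOU in 2. ACTB, MT-ND3 and FASTKD5 were lost in 5, DNAJB1 and DYNLL1 in 4, MTHFD2, HNRNPM and HERPUD1 in 3, GPT2 in 2 and RBM12 in 1.

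Of the 32 rises, 15 belonged to the ATF4 branch. Of 40 tested genes of the ATF4 and integrated stress response list, 15 rose, none fell and 25 did not pass, and the median log2 change was 0.51 against -0.02 for all genes. ATF4 itself, the transcription factor of this response (ENSG00000128272, chromosome 22, 39519695 to 39522685), lay at 453, 459, 449 and 449 CPM with topotecan and at 617, 618, 679.7 and 683 CPM with the combination. Every combination library was above every topotecan library, and the rise was 1.44-fold (log2 0.52 ± 0.07, adjusted p = 0.000334, edgeR).

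CHAC1, which breaks down glutathione and is a standard marker of ATF4 activity (ENSG00000128965, chromosome 15, 40952962 to 40956519), had the largest rise. It was at 10.6, 11.8, 11.8 and 5.80 CPM with topotecan and at 39.01, 32.5, 56.4 and 29.8 CPM with the combination. The lowest combination library lay well above the highest topotecan library, and the rise was 3.96-fold (log2 1.99 ± 0.29, adjusted p = 0.000854, edgeR).

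DDIT3, which encodes the stress transcription factor CHOP, read 29.95, 25.9, 26.2 and 25.5 CPM with topotecan and 57.5, 68.5, 68.2 and 68.8 CPM with the combination. The groups were apart, and DDIT3 rose 2.45-fold (log2 1.29 ± 0.16, adjusted p = 0.000104, edgeR). STC2, a secreted glycoprotein hormone, rose 2.14-fold, from 74.7 ± 8.72 to 160.1 ± 9.82 CPM (SD, n = 4). DDIT4 and SESN2, which both restrain the growth kinase mTORC1, rose 2.15-fold and 1.78-fold, from 57.1 to 122.5 and from 68.3 to 121.8 CPM (means, n = 4). DDIT4 lost its call when any 1 of the 8 libraries was left out (adjusted p = 0.0523 to 0.0962, edgeR), and SESN2 kept it in all 8 fits. TRIB3, a pseudokinase that acts back on ATF4, rose 1.74-fold, and CEBPG, a bZIP partner of ATF4, rose 1.47-fold. VLDLR, a lipoprotein receptor, rose 1.59-fold.

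**Figure D1:**
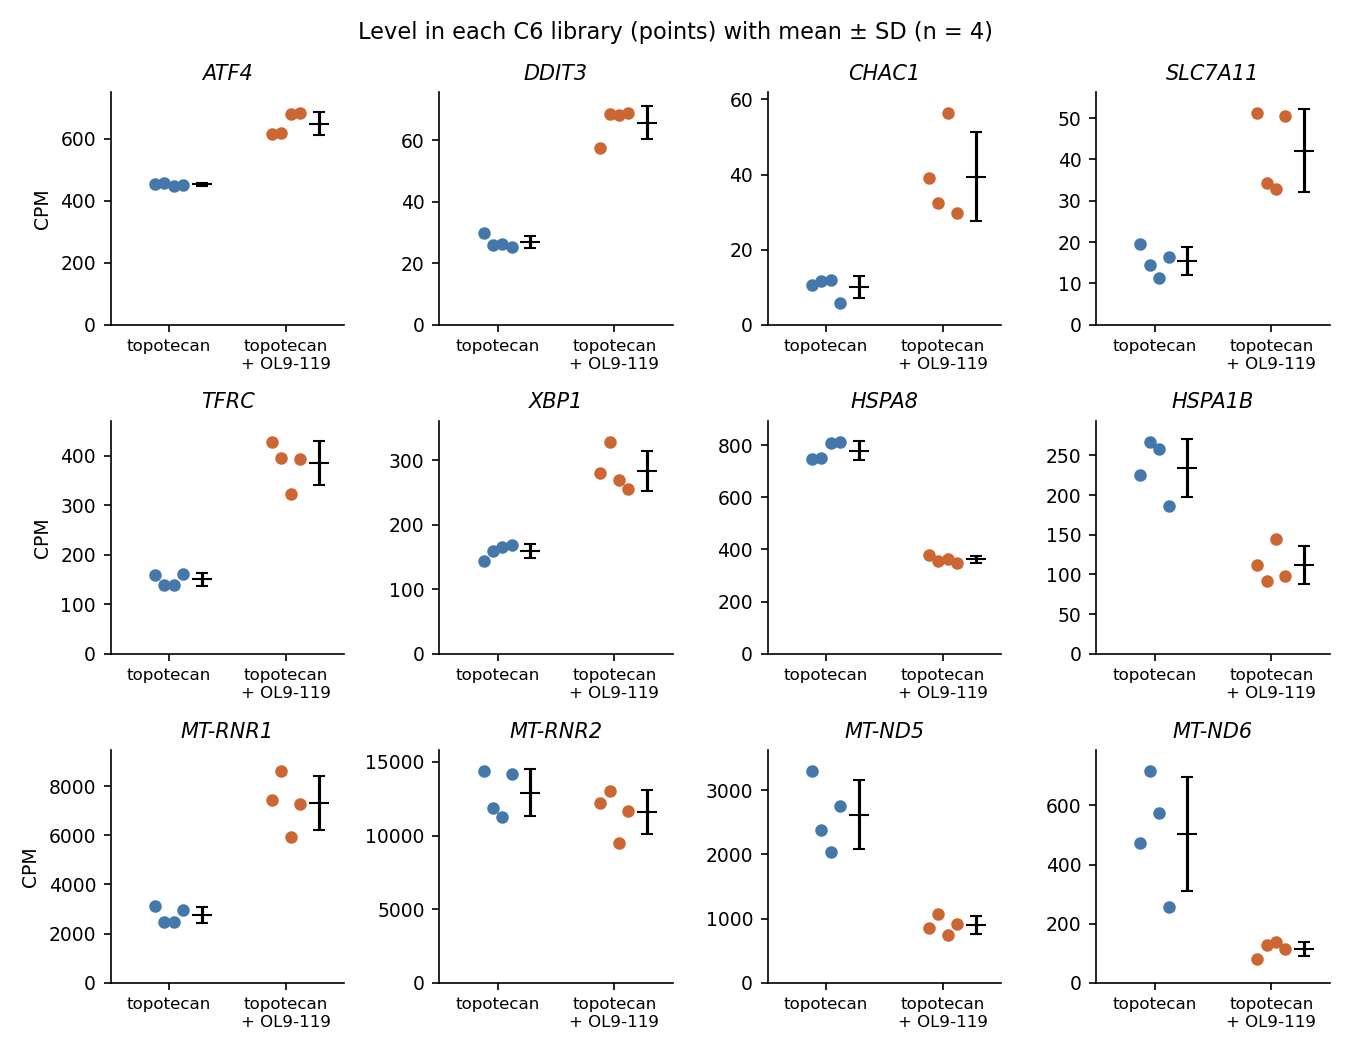
Normalised level in CPM (vertical axes, from 0) of 12 genes in each C6 library given topotecan (blue) or topotecan with OL9-119 (orange), with the mean ± SD of 4 libraries in black. The groups are apart in every panel except MT-RNR2, where 11290 to 14370 CPM with topotecan overlaps 9500 to 13030 CPM with the combination.

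The 250 bases before the RefSeq gene start are shown for the called genes in which 1 of 3 stress-response motifs was found, because these genes are also among those that moved. The motifs searched on both strands were the ATF4 composite element (TGATG, any base, AA and any base), the heat shock element (GAA, TTC and GAA with 2 bases of any kind between them) and the endoplasmic reticulum stress element (CCAAT and CCACG with 9 bases of any kind between them). No matches overlapped in the promoters shown. Capitals mark the matches, sequences run 5′ to 3′ on the gene's strand, and the build of the RefSeq table is GRCh38.p14.
CHAC1, chr15:40953221-40953470, plus strand: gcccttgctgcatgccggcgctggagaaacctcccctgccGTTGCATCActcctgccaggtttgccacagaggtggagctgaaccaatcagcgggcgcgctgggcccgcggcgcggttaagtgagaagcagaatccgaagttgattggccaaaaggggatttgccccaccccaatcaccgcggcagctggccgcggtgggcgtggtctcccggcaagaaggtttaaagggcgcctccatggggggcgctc
HERPUD1, chr16:56931892-56932141, plus strand: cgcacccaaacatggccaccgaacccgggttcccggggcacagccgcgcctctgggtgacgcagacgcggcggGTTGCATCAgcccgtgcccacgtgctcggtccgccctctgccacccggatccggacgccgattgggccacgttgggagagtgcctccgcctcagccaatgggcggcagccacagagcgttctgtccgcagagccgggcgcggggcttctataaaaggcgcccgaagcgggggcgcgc
XBP1, chr22:28800570-28800819, minus strand: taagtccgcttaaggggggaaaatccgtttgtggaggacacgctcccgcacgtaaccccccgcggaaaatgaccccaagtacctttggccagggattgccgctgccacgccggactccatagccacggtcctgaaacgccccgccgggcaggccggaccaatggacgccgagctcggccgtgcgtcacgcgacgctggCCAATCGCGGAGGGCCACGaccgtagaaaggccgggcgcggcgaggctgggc
HSPA8, chr11:123062137-123062386, minus strand: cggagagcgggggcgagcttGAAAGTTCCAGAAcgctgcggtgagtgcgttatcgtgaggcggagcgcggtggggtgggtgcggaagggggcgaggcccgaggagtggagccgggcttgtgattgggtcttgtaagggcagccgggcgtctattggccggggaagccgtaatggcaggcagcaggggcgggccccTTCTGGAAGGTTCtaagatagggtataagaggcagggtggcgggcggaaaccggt

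The table held promoters for 11893 of the tested genes, 27 of the 32 that rose and 9 of the 21 that fell. The ATF4 element was found in 2 of the 27 (7.41%), CHAC1 (bases -210 to -202) and HERPUD1 (-177 to -169), and in 1.4% of the 11893. Within the ATF4 list it was found in 4 of 34 tested promoters (11.8%) and in 1 of the 14 called higher (7.14%). Over all 35116 promoters available its share was 3.13%. The stress element was found in 1 of the 27, XBP1 (-52 to -34), and in 0.143% of promoters of tested genes. The heat shock element was found in 1 of the 9 promoters of genes that fell, HSPA8 (-230 to -218 and -55 to -43), and in 0.286%. These are matches of letters in a short window and say nothing of binding. Positions count from the RefSeq start, which can differ from the GENCODE start. By the GENCODE coordinates the windows of CHAC1 and HSPA8 lie inside the gene, and that of XBP1 overlaps its start.

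Of 21 amino acid transporters 3 rose and none fell (median log2 0.23). The gene lists overlap, so their counts are not separate: SLC7A11, for example, is counted both here and among the NRF2 targets. Without the low-detection libraries 2 rose and the median was 0.04. SLC7A11, the cystine importer that supplies glutathione synthesis, stood at 19.5, 14.4, 11.3 and 16.3 CPM with topotecan and 51.2, 34.2, 32.8 and 50.4 CPM with the combination. The groups did not overlap, and the rise was 2.77-fold (log2 1.47 ± 0.23, adjusted p = 0.00126, edgeR). SLC6A9, a glycine transporter, rose 2.84-fold, from 7.76 ± 2.00 to 22.4 ± 3.31 CPM, and SLC38A2, a neutral amino acid transporter, rose 1.55-fold, from 500.3 ± 62.1 to 776 ± 94.6 CPM (SD, n = 4). The transporters that did not pass included SLC7A5 (log2 0.24) and SLC3A2 (0.23), which pair up for large neutral amino acids.

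Of 21 genes of serine, asparagine, proline and one-carbon synthesis 3 rose and none fell (median log2 0.18). This count was 1 without topotecan replicate 2 and 0 without replicate 1 of every group or without the low-detection libraries. PSAT1, of serine synthesis, was at 94.6 to 100.1 CPM with topotecan and at 151 to 166.5 CPM with the combination, a rise of 1.62-fold. GPT2, which makes alanine from pyruvate, rose 1.56-fold, and MTHFD2, the mitochondrial folate enzyme, rose 1.48-fold, while PHGDH, the first enzyme of serine synthesis, did not pass (log2 0.26). ASNS, asparagine synthetase, is named here after its values were seen: it was at 1.33, 3.75, 3.12 and 2.49 CPM with topotecan and 6.18, 6.29, 7.003 and 11.4 CPM with the combination. Its groups were apart, but at this low level the log2 change of 1.49 ± 0.40 did not pass (adjusted p = 0.169, edgeR).

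Of 20 cytosolic tRNA synthetases, which load amino acids onto tRNAs, 2 rose and none fell: CARS1 for cysteine (1.45-fold, from 85.1 to 123.5 CPM) and GARS1 for glycine (1.35-fold, from 225 to 305 CPM). The count was 0 in the fit of only the 8 libraries, without the low-detection libraries and without any 1 replicate number, and GARS1 was lost in 7 of the 8 fits that left out 1 library (adjusted p up to 0.198, edgeR). Of 17 mitochondrial synthetases none passed, with a median log2 change of -0.07. None of 16 genes for the kinases and eIF2 factors upstream of ATF4 passed, with a median of 0.09. For the ATF4 list, the count without the low-detection libraries was 10 of 41 with a median of 0.51, and without replicate 1 of every group it was 6 of 41.

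Among genes of protein quality control, those of the endoplasmic reticulum that passed rose and those of the cytosol that passed fell. Of 27 genes of the unfolded protein response of the endoplasmic reticulum 2 rose, and the median was -0.07. XBP1, whose spliced form is a transcription factor of this response (ENSG00000100219, chromosome 22, 28794555 to 28800597), was at 144, 159.9, 166 and 168 CPM with topotecan and 280.3, 328, 269 and 255 CPM with the combination. The groups were apart and the rise was 1.77-fold (log2 0.83 ± 0.11, adjusted p = 0.000132, edgeR). HERPUD1, which helps remove misfolded proteins from the endoplasmic reticulum, rose 1.57-fold, from 41.5 ± 4.37 to 65.0 ± 3.26 CPM. HSPA5 (BiP), the main chaperone of this compartment, had a log2 change of -0.01 and DNAJB9 one of 0.23, and neither passed.

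Of 30 tested cytosolic heat shock genes and chaperones 3 fell and none rose, with a median of -0.16. HSPA8, the constitutive member of the HSP70 chaperones (ENSG00000109971, chromosome 11, 123057489 to 123063230), had the smallest p of all genes. It was at 746, 750.3, 807 and 811 CPM with topotecan and at 378, 357, 362 and 349.7 CPM with the combination. The highest combination library held less than the lowest topotecan library, a 2.15-fold fall (log2 -1.11 ± 0.09, adjusted p = 2.42e-07, edgeR).

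HSPA1B, an inducible member of the HSP70 chaperones, read 226, 267, 258 and 186 CPM with topotecan and 112, 91.5, 145 and 97.5 CPM with the combination, without overlap, and fell 2.09-fold (log2 -1.06 ± 0.17, adjusted p = 0.00225, edgeR). HSPA1A is a near-identical copy at 1.55 CPM with topotecan, so reads may be split between them and the value is uncertain for either gene. DNAJB1, the co-chaperone of these proteins, fell 1.37-fold, from 194.7 ± 11.6 to 141.5 ± 14.3 CPM. HSP90AA1 had a log2 change of -0.12 and HSP90AB1 one of -0.18, and neither passed.

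**Figure D2:**
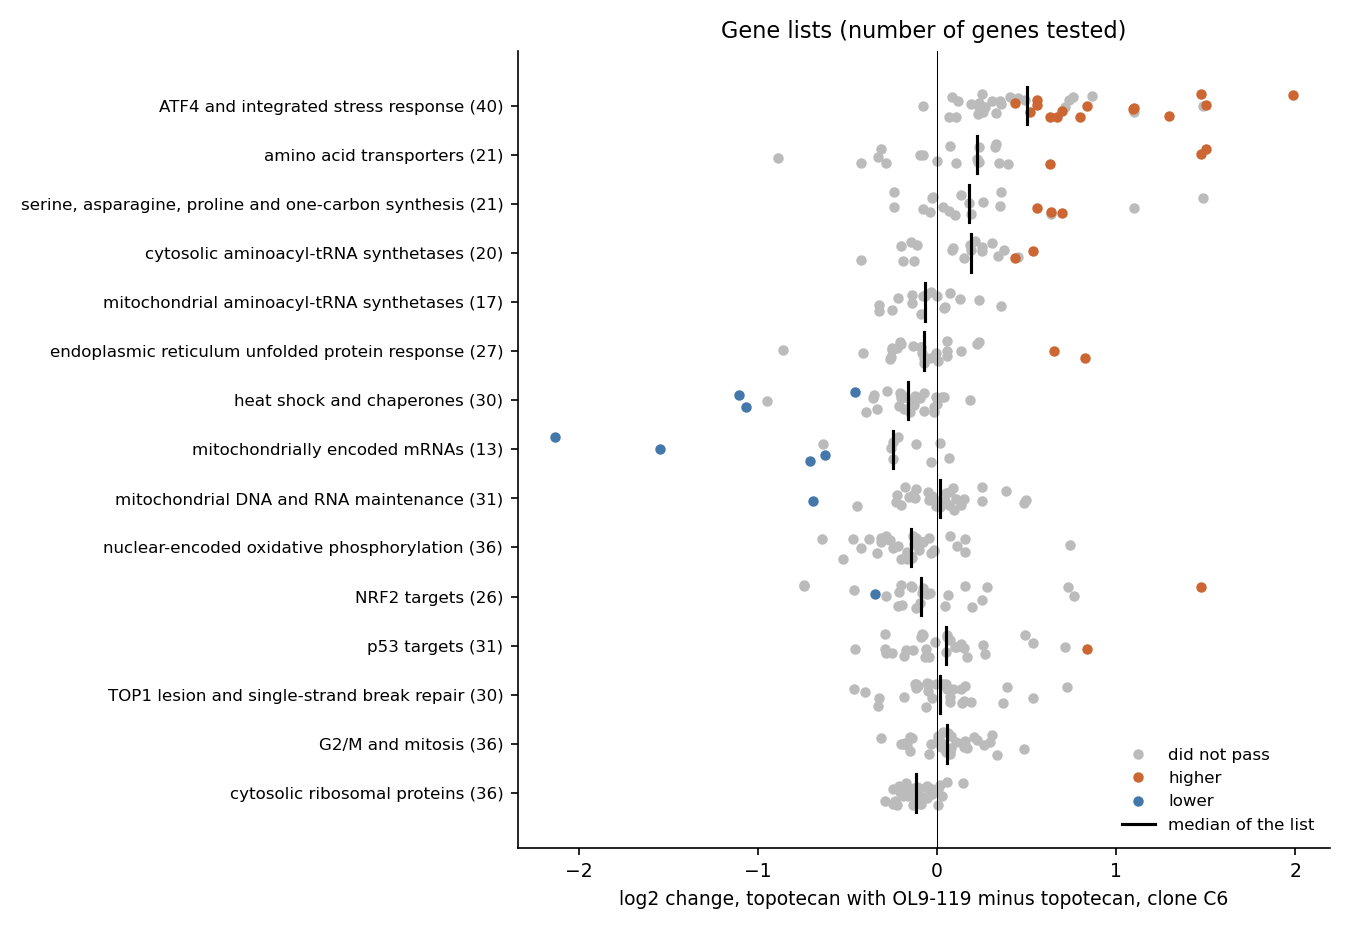
Log2 change of each tested gene (points) when OL9-119 was added to topotecan in C6, for 15 of the gene lists, with the number tested in brackets and a black bar at the median of the list. Orange points rose, blue points fell and grey points did not pass, and the ATF4 list has its median at 0.51 while the other bars lie between -0.25 and 0.23.

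Among the other rises, TFRC, the transferrin receptor that brings iron into cells (ENSG00000072274), was at 160.0, 139.8, 139 and 161 CPM with topotecan and 427, 396, 322 and 393 CPM with the combination. The groups were far apart, and TFRC rose 2.56-fold (log2 1.36 ± 0.13, adjusted p = 1.39e-06, edgeR). ULBP1, a ligand of the natural killer cell receptor NKG2D, rose 1.97-fold from 26.6 to 52.3 CPM, and TSC22D3 (GILZ), a glucocorticoid-induced regulator, rose 1.70-fold from 46.3 to 78.5 CPM. TUBE1, epsilon-tubulin, rose 1.85-fold from 28.9 to 53.6 CPM. The long non-coding RNAs SNHG1 and NEAT1 rose 1.47-fold and 1.46-fold, the only 2 of 22 in their list. Outside the naming rule, named after their values were seen, ID4 rose 1.58-fold, RHOU and CCDC71L 1.501-fold each, SIAH1 1.60-fold, HES1 1.38-fold and ADAMTS1 1.34-fold.

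Among the other falls of nuclear genes, TXNIP, which binds thioredoxin and is induced by glucose, was at 129, 107.5, 107 and 126.1 CPM with topotecan and 72.8, 67.0, 62.9 and 57.3 CPM with the combination. The groups were apart, and TXNIP fell 1.81-fold (log2 -0.86 ± 0.11, adjusted p = 0.000132, edgeR). HOXA5, a homeobox factor, fell 1.93-fold from 14.5 to 7.45 CPM. CBX6, a Polycomb protein, fell 1.61-fold, ACTB, beta-actin, 1.47-fold, SFPQ, a splicing and paraspeckle protein, 1.41-fold, RBM12 1.41-fold, OAZ2, an inhibitor of polyamine synthesis, 1.40-fold and PRDX1, a peroxiredoxin, 1.27-fold. DYNLL1 and HNRNPM, named after their values were seen, each fell 1.36-fold.

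The genes of the mitochondrial genome moved in different directions from each other. Mitochondrial DNA is transcribed as long RNAs from both strands that are cut into rRNAs, mRNAs and tRNAs, and most genes lie on the strand annotated as plus. The summed mitochondrial share of the normalised counts was 4.70 to 6.77% with topotecan and 4.56 to 5.83% with the combination, overlapping (exact permutation test over 4 against 4 libraries, two-sided, p = 0.686, adjusted p = 0.686). Of 23 mitochondrial genes tested 1 rose and 7 fell. MT-RNR1, the small ribosomal RNA (chromosome M, 648 to 1601), was at 3113, 2466, 2463 and 2969 CPM with topotecan and 7446, 8611, 5924 and 7290 CPM with the combination. The groups were far apart, and the rise was 2.66-fold (log2 1.41 ± 0.13, adjusted p = 1.39e-06, edgeR).

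MT-RNR2, the large ribosomal RNA that follows it (1671 to 3229), was at 14370, 11840, 11290 and 14170 CPM with topotecan and 12210, 13030, 9500 and 11680 CPM with the combination. Here the groups overlapped (log2 -0.15 ± 0.14, adjusted p = 0.749, edgeR). As a share of the counts of both rRNAs, MT-RNR1 was 17.2 to 17.9% in the topotecan libraries and 37.9 to 39.8% in the combination libraries. These libraries were made from poly(A)-selected RNA, so the counts are of the rRNA that passed that selection, and its part in the change was not tested.

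Of 13 mitochondrial mRNAs 4 fell and none rose. MT-ND5, a subunit of respiratory complex I (12337 to 14148), was at 3294, 2376, 2040 and 2757 CPM with topotecan and at 859, 1070, 741 and 914 CPM with the combination, and fell 2.92-fold (log2 -1.55 ± 0.15, adjusted p = 1.39e-06, edgeR). All combination libraries lay below all topotecan libraries. MT-ND6, the complex I subunit encoded on the minus strand (14149 to 14673), went from 472, 716, 574 and 256 CPM to 80.6, 126.8, 137 and 116 CPM, a 4.39-fold fall (log2 -2.13 ± 0.29, adjusted p = 0.00031, edgeR). MT-ND3 of complex I fell 1.64-fold and MT-CO2 of cytochrome c oxidase 1.54-fold. Without the low-detection libraries neither MT-CO2 (log2 -0.46, adjusted p = 0.25, edgeR) nor MT-ND3 (log2 -0.71, adjusted p = 0.0516, edgeR) passed, and MT-ND3 was also lost in 5 of the 8 fits that left out 1 library.

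The other 9 mRNAs did not pass: their log2 changes ran from -0.63 for MT-ATP8 to 0.07 for MT-CO1, with MT-ND1 at -0.03, MT-ND2 at 0.01, MT-CO3 at -0.11, MT-CYB at -0.22, MT-ND4 at -0.24, MT-ND4L at -0.25 and MT-ATP6 at -0.25. MT-ND5 made up 6.14 to 7.50% of the counts of the 13 mRNAs with topotecan and 2.46 to 2.92% with the combination.

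Only 8 mitochondrial tRNAs had enough counts to test, and 3 fell, all annotated on the minus strand. As with the rRNAs, the counts of tRNAs and mRNAs are of RNA that passed the poly(A) selection. The part of that selection in these changes was not tested. Cut tRNAs and longer, uncut RNAs that hold their sequence cannot be told apart in these counts. MT-TP (proline) had 72 to 148 counts per topotecan library and 2 to 21 per combination library, and fell 7.82-fold (log2 -2.97 ± 0.48, adjusted p = 0.00241, edgeR). MT-TQ (glutamine) had 36 to 156 and 0 to 6 counts (log2 -4.29 ± 0.61, adjusted p = 0.000533, edgeR). MT-TA (alanine) had 68 counts over the topotecan libraries and 0 in all combination libraries. That is at least 15.1-fold lower when 3 counts over the combination group are taken as the floor, which covers counting error in that group only. All 6 minus-strand genes tested had log2 changes below -2, but 5 of these are tRNAs and only 3 of the 17 plus-strand genes are. The 3 plus-strand tRNAs ran from -2.14 to 2.05 (median -1.65), and none of them passed. The 12 plus-strand mRNAs had a median of -0.24. Strand and RNA type therefore cannot be told apart. How the counting used strand is not given in the sources used here. For minus-strand genes sense and antisense reads therefore cannot be told apart. Of 31 nuclear genes that maintain mitochondrial DNA and RNA 1 fell, FASTKD5 (1.61-fold), which acts in processing mitochondrial RNA, and none of 36 nuclear genes of oxidative phosphorylation passed (median log2 -0.14).

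**Figure D3:**
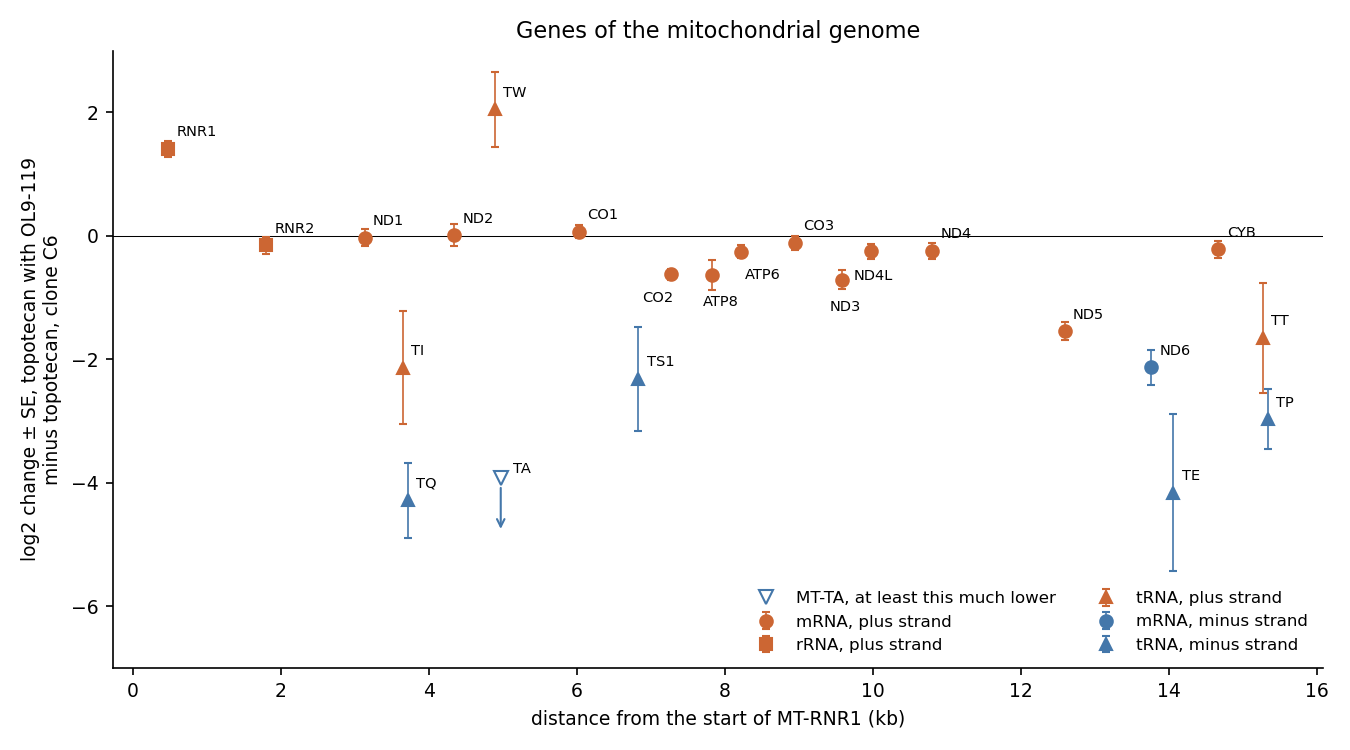
Log2 change ± SE (vertical axis) of the 23 tested mitochondrial genes when OL9-119 was added to topotecan in C6, against the distance in kb of the gene's middle from the start of MT-RNR1. Squares are rRNAs, circles mRNAs and triangles tRNAs, orange on the plus and blue on the minus strand. The open triangle with an arrow marks the fall of MT-TA with 3 counts as the floor of the combination group. It leaves out the spread between libraries. MT-RNR1 stands at 1.41 beside MT-RNR2 at -0.15, and the minus-strand genes all lie under -2.

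The same compound without topotecan served as a comparison that shares no library, since OL9-119 minus DMSO in C6 uses 8 other libraries. Both came from the same fit, which estimates a common spread for each gene, so their calls are not independent. It gave 169 of 16657 called genes (1.01%), 89 higher (0.534%) and 80 lower (0.48%). All 53 genes changed by OL9-119 on top of topotecan had the same sign there, against 51.4% of all genes tested, and 44 of them were also called there. Of the 40 genes of the ATF4 list, OL9-119 alone raised 29 and lowered none. The median log2 change of that list was 0.731 alone and 0.505 on top of topotecan. In the other direction, 88 of the 89 genes that OL9-119 alone raised had a log2 change above 0 on top of topotecan and 28 were called, with a median of 0.72 alone and 0.45 with topotecan. Of the 80 it lowered alone, all had a log2 change below 0 and 16 were called (median sizes 0.51 and 0.25). These genes were picked by their calls with OL9-119 alone, which favours large sizes there. In these sets a weaker effect with topotecan cannot be told apart from that choice. The 53 genes were picked by their calls on top of topotecan, which favours large sizes with topotecan. Their median sizes were 0.73 alone and 0.69 with topotecan. Whether the effect was weaker over a set of genes was not tested. Across all tested genes the changes were nearly unrelated (Pearson r = 0.066), and r was 0.23 over the 9188 genes whose mean log2 CPM was 4 or more. Genes are not independent replicates, and these r are descriptions.

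Whether the effect of OL9-119 differed with and without topotecan was tested as an interaction. Of the genes tested, 791 had an unadjusted p under 0.05 (edgeR), against 548 for DMSO minus no treatment in the same fit. Both shares are under the nominal 0.05, so that value alone is not a fair background here. The interaction was called for 1 of 16657 genes (0.006%, edgeR), and not for any of the 53. That gene was ATF3, a stress-induced transcription factor. OL9-119 alone raised ATF3 from 110.5 ± 3.49 CPM in DMSO to 192 ± 9.60 CPM (log2 0.80 ± 0.08, adjusted p = 1.29e-06, edgeR). With topotecan the libraries were at 308, 292, 279 and 288 CPM, and with the combination at 331, 300.4, 322.5 and 303 CPM. Those groups overlapped, and the log2 difference was 0.11 ± 0.08 (adjusted p = 0.687, edgeR). The difference between the effects was -0.69 ± 0.11 (adjusted p = 0.0294, edgeR). Its size ran from -0.54 to -0.73 over the alternatives. The adjusted p was 4.71e-06 with all 60 libraries and 1.66e-05 with detected genes as a covariate (edgeR), and 1.92e-07 with DESeq2. The call was lost whenever any 1 of the 8 libraries was left out (adjusted p = 0.0662 to 0.231, edgeR).

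The interaction of CHAC1 was larger in size and did not pass. Its level was 4.21 ± 1.48 CPM in DMSO and 48.7 ± 11.7 CPM with OL9-119 alone, a log2 change of 3.51 ± 0.32 against 1.99 ± 0.29 on top of topotecan. The difference was -1.53 with a 95% interval of -2.40 to -0.65, not adjusted over genes (adjusted p = 0.785, edgeR). For DDIT3 the values were 1.90 alone and 1.29 on top, and for TFRC 0.88 and 1.36, and neither difference passed. An adjusted p over the threshold does not show that the effects were equal.

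**Figure D4:**
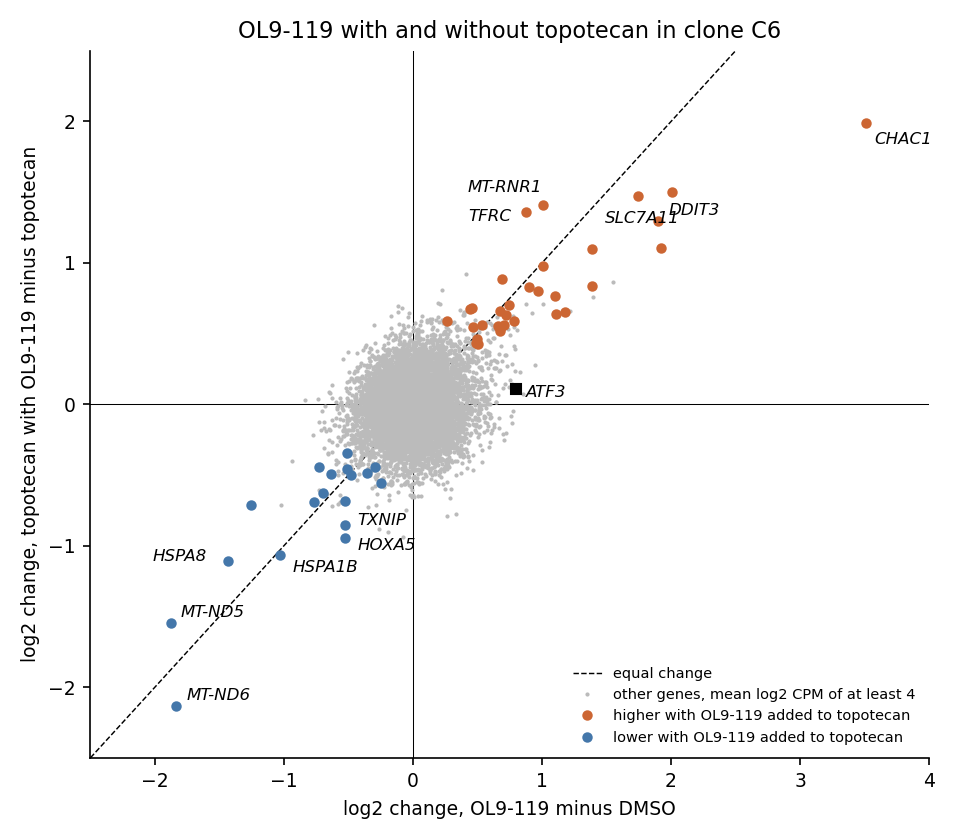
Log2 change for OL9-119 minus DMSO (horizontal axis) against OL9-119 added to topotecan (vertical axis) in C6, with genes that rose in orange, genes that fell in blue, other genes whose mean log2 CPM was 4 or more in grey and equal change as a dashed line. MT-TQ, MT-TP and MT-TA lie outside the axes, and ATF3 (black square) stands at 0.80 without and 0.11 with topotecan.

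The same addition in the other knockout clones used libraries of their own, fitted over all 60. In F7 it called 168 of 18985 genes (0.885%), 84 higher (0.442%) and 84 lower (0.442%). In G6 it called 0.537% of them, 66 higher (0.348%) and 36 lower (0.19%). The same fit called 311 genes in C6 (1.64%), 166 higher (0.874%) and 145 lower (0.764%), where the fit of C6 alone called 53. Of the 53 C6 genes all had the same sign in both clones, 45 were called in F7, 41 in G6 and 39 in both. Of 49 genes that rose in both F7 and G6, 48 had a log2 change above 0 in the fit of C6 alone and 24 were called in it. Of 25 that fell in both, all were below 0 in the fit of C6 alone and 15 were called. That fit called fewer genes than the fit of all 60, which gave the F7 and G6 calls, so these counts are not like for like. In the fit of all 60 libraries the ATF4 list had 28 rises in F7, 25 in G6 and 24 in C6 (medians 0.55, 0.54 and 0.49). HSPA8 changed by -1.01 ± 0.08 in F7 and -0.77 ± 0.08 in G6, and MT-RNR1 by 1.05 ± 0.13 and 0.66 ± 0.13.

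No gene passed the test of a difference between C6 and the mean of F7 and G6 (0 of 18985, edgeR; 902 at an unadjusted p under 0.05). The share of those 902 is also under the nominal 0.05, but DMSO minus no treatment was not tested in that fit as a background. HOXA5 is an example of the C6 genes called in neither F7 nor G6, and not the only one. It was called in C6 (log2 -0.95) and not in F7 (-0.39) or G6 (-0.38), and its difference between clones was not called. Its call in C6 was lost in the fit of only the 8 libraries, and its log2 change was -0.68 without the low-detection libraries.

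**Figure D5:**
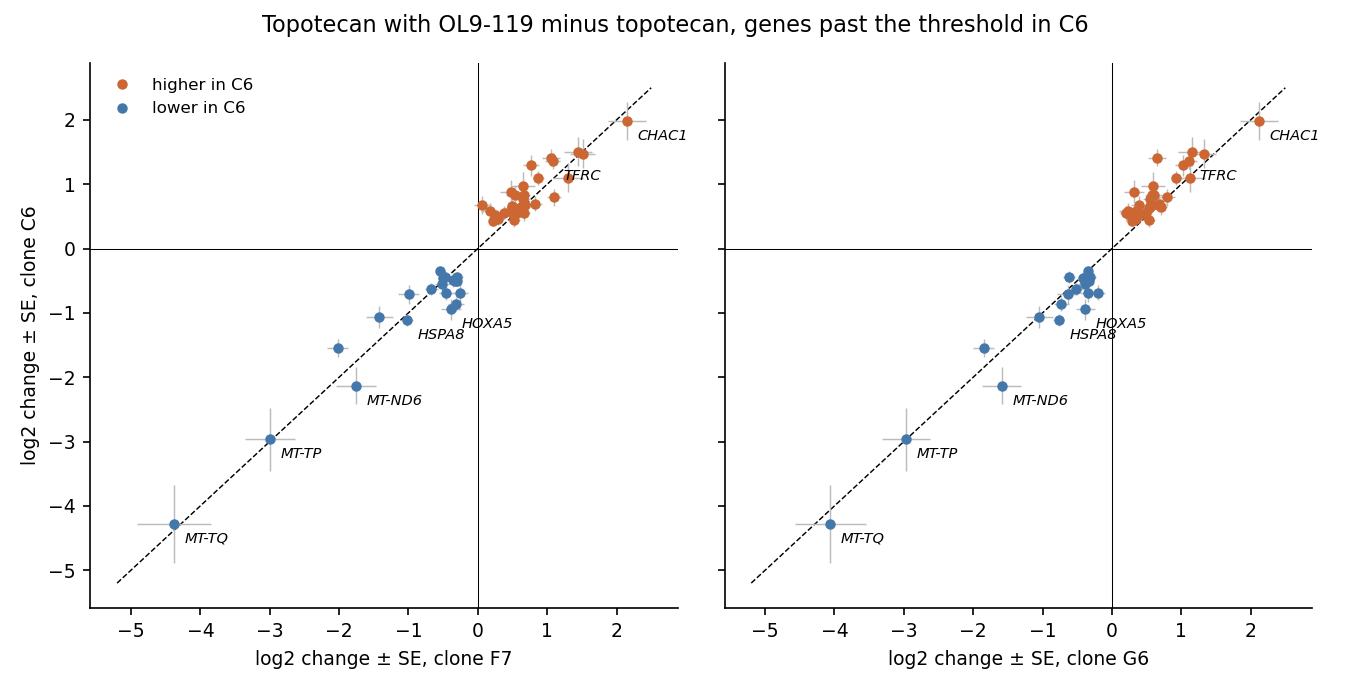
Log2 change ± SE for OL9-119 added to topotecan in C6 (vertical axes) against the same in F7 (left) and G6 (right), for 52 of the 53 genes called in C6, with equal change as a dashed line. MT-TA is left out because its combination counts were 0, and all points lie in the quadrants of equal sign.

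Gene groups tied to topoisomerase 1 damage gave few calls, but so did all genes tested (53 of 16657, 0.318%). Few or no calls in a list of this size therefore say little about its genes. None passed of 30 genes of TOP1 lesion and single-strand break repair (median log2 0.01), 29 of homologous recombination and Fanconi anaemia (0.12), 39 of G1/S and replication (-0.14), 36 of G2/M and mitosis (0.06) or 30 apoptosis regulators (-0.08). Of 31 p53 targets 1 rose, SESN2, which is also an ATF4 target, while CDKN1A had a log2 change of -0.13 and MDM2 one of 0.06. Among 26 NRF2 targets SLC7A11 rose and PRDX1 fell, and PRDX1 was not called in 17 of 23 alternatives, each omission of 1 library among them (adjusted p = 0.0657 to 0.156, edgeR). None passed of 29 NF-kB genes, whose median was 0.21, 35 immediate early genes (-0.10), 36 cytosolic ribosomal proteins (-0.11), 33 proteasome subunits (-0.14), 29 sterol and fatty acid genes (-0.02) or 32 HIF1 and glycolysis genes (-0.11).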

How the data were processed

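The deposited table holds whole-number counts of reads per gene and library, raw as the authors made them. Per the submitters' processing notes the tools were FastQC 0.11.9, STAR 2.7.8 and Picard 2.26.6 on hg38, with no counting tool, annotation or use of strand given in the sources used here. Every sample column was mapped to a sample by its label. Of 58395 identifiers 58275 were found in GENCODE 29, whose coordinates are printed.

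From the counts, edgeR 4.0.16 (R 4.3.3; TMM scaling, filterByExpr, robust quasi-likelihood F test, two-sided) was fitted to the 20 libraries of C6 with 1 mean per treatment (15 residual degrees of freedom), and to all 60 libraries for the comparison of clones. P-values were adjusted by Benjamini-Hochberg over all genes in a fit. CPM use TMM library sizes, and ± gives the SE of log2 changes and the SD of levels. The code was tested on simulated data. The total counts set the precision: 1 CPM is 4.62 to 16.2 counts per library here.

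The 40 gene lists, the naming rule and the comparison itself were chosen with earlier results of these data known. The rule names TDP1, TOP1, the 15 highest and 15 lowest called changes whose mean log2 CPM was 2 or more and whose groups were apart, all mitochondrial genes, of each list up to 6 called members and its 2 highest, and for both dependence tests the 5 smallest p in each direction. Alternatives were scaling, filters, the libraries fitted, DESeq2 1.42.0, replicate numbers as blocks, a covariate for detected genes, and libraries left out. Leaving out the libraries of low detection as run here was chosen after seeing the data.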

Additional observations from a re-analysis of the deposited data

Results flagged for a closer look

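In groups of 4 libraries, a single value far from the other 3 was looked for among the called, mitochondrial and targeted genes and the library measures of the topotecan and combination groups. Of 154 groups, 11 held one, and chance gives about 1 in 20. In topotecan replicate 1, DDIT3 read 29.95 CPM (the others 25.5 to 26.2), VLDLR 47.4 CPM (36.2 to 37.2), CCDC71L 30.9 CPM (26.1 to 26.8) and MT-CO1 13540 CPM (9400 to 9867). In combination replicate 1, DDIT3 read 57.5 CPM (68.2 to 68.8), MT-CO2 2695 CPM (3058 to 3105) and MT-TT 1.05 CPM (0 to 0.101). TRIB3 was at 36.4 CPM in topotecan replicate 3 (29.4 to 30.1), and in topotecan replicate 4 MTHFD2 was at 262 CPM (228 to 234) and HES1 at 89.1 CPM (76.2 to 77.9). MT-TE was at 0.0854 CPM in combination replicate 3 and at 0 in the others. Both replicates numbered 1 were among the libraries of low detection, whose part in these values was not tested. In DDIT3, VLDLR, CCDC71L, TRIB3, MTHFD2, HES1 and MT-CO2 the topotecan and combination groups did not overlap even so.

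ATF3 is listed because the effect of OL9-119 on it differed with and without topotecan by -0.69 on the log2 scale, in the test of that difference given with the ATF3 values. The level of ATF3 was 110.5 ± 3.49 CPM in DMSO, 192 ± 9.60 with OL9-119, 292 ± 12.2 with topotecan and 314 ± 14.98 with the combination (SD, n = 4). In F7 the addition of OL9-119 to topotecan changed ATF3 by 0.38 ± 0.06 (adjusted p = 5.78e-05, edgeR) and in G6 by -0.05 ± 0.06 (adjusted p = 0.999, edgeR), and the difference between C6 and the mean of these clones did not pass (adjusted p = 1, edgeR).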

How the results depend on the processing

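The 53 calls (32 higher, 21 lower) became 112 with no filter (64 lower), 311 in the fit of all 60 libraries (166 and 145), 156 with DESeq2 (90 and 66), 455 with detected genes as a covariate (202 and 253) and 25 without the low-detection libraries (18 and 7), and 13 fell without mitochondrial genes. Over replicates left out, calls ranged from 16 to 65 (10 to 35 higher, 6 to 30 lower). The share of higher calls, 60.4%, was 42.9% with no filter, 71.7% without mitochondrial genes and 44.4% with the covariate. For OL9-119 alone, 169 became 318 without the low-detection libraries, 612 with all 60 libraries and 383 with DESeq2. The dependence on topotecan, 1 call, became 13 with no filter (not ATF3, adjusted p = 0.0591, edgeR) and 0 without mitochondrial genes, without the low-detection libraries and with any replicate left out. The dependence on clone, 0 calls, became 4 with no filter and 1 with the covariate, and stayed at 0 with replicates left out. The mitochondrial share differed by -0.51 to 0.18 percentage points with 1 library left out (0.181 without topotecan replicate 1), and detected genes by -1451 to -161. TDP1 (-0.24 to 0.09 over replicates left out) turned to 0.18 without the low-detection libraries, 0.0625 without topotecan replicate 1 and 0.0925 without replicate 1 of every group. TOP1 (-0.15 to 0.06 likewise) turned to 0.0111 without combination replicate 3, 0.0594 without topotecan replicate 4 and 0.0023 without replicate 4. Causes were not tested.

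The deviations of same-numbered libraries had correlations of 0.0655, -0.50, 0.757 and 0.412, not all above 0.1, so the numbers were not taken as pairs, and the replicate block gave 69 calls (40 higher, 29 lower), with all 53 kept. Of the 53, 14 passed in every fit that held them. As planned, with at least 2 libraries per group, leaving out low-detection libraries could not be run, and the version run leaves 1 combination library, assumed to vary like the others; for the clones it was not run. The fit of only the 8 libraries was not run for the dependence tests. Depth limits genes near 1 CPM, where a library holds 4.62 to 16.2 counts.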
